A study of Mus musculus with 16 samples.

Results

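The limbal captures are the 8 arrays, of 16 in the series, whose sample title ends in the letter read as limbus. Each array held amplified RNA from 300 laser-captured cells of 1 mouse, and the remaining 8 arrays held corneal captures of the same mice. All 8 mice are labelled wild type, and the sources used here give no strain, age or treatment. Laser capture takes cells by their place in a tissue section, so a capture can also hold neighbouring cells. Every value below is the authors' signal on an Affymetrix Mouse430_2 array, an intensity scaled to the same trimmed mean of 500 on every array. A gene was read from its brightest probe set with a single gene symbol, which gave 18193 genes from 34945 probe sets. Probe sets differ in how brightly they report a transcript, so ranks and percentiles order signals and not molecules.

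The limbus is the rim where the cornea meets the conjunctiva, and its basal layer is held to house the stem cells that renew the corneal epithelium. Basal cells of stratified epithelia make the keratin pair Krt5 and Krt14 and are joined to the basement membrane by hemidesmosomes. Krt15 is associated with basal cells of the limbus, while Krt4 and Krt19 are keratins of conjunctival and other mucosal epithelia. Cells that enter corneal differentiation make Krt12. Beneath the epithelium lie collagen-rich stroma, blood vessels and resident immune cells, and the iris, ciliary body and eyelid lie close by.

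The arrays fell into 3 scan days, with mice 1 and 2 on day 1, mice 3, 4 and 5 on day 2 and mice 6, 7 and 8 on day 3. Limbal arrays were correlated on the log2 scale across all probe sets other than controls. Within day 3 the 3 pairs had Pearson correlations of 0.82 to 0.86, and the pair of day 1 had 0.60. Within day 2 they were between 0.26 and 0.29. The 99th percentile of the signal was 8668 and 9557 on the limbal arrays of day 1. It ranged from 2496 to 3003 on those of day 2, and from 14575 to 17948 on those of day 3. The arrays of mice 3, 4 and 5 thus stood apart. The marker keratin percentiles, the brightest genes and the spread are also given without these 3 arrays. Most gene list percentiles are given with all 8 arrays only. Correlations of gene pairs and of gene lists were recomputed without single arrays, but not without all 3. Scan day and differences among the mice of each day cannot be told apart.

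The 4 marker keratins had very unequal signals from mouse to mouse. Krt4 was at 19516.5 and 44410.5 on day 1, at 4155, 719 and 2606 on day 2 and at 7639, 13569.8 and 4523 on day 3, with a median of 6081. Both day 1 arrays were above all others, and the array of mouse 4 was the lowest. Krt15 read 3694 and 18852 on day 1, 1443, 119.6 and 984 on day 2 and 5812, 17806 and 3036.6 on day 3. It was highest on the arrays of mice 2 and 7, and on that of mouse 4 it lay below the array's own median of 307.7. Krt14, the basal keratin, had signals of 7809.7 and 7441 on the day 1 arrays, 934, 1058 and 2604 on the day 2 arrays and 6299.8, 7102 and 1983.6 on the day 3 arrays. Its 5 arrays outside day 2 did not all exceed the day 2 arrays, since mouse 8 was below mouse 5. Krt19 was at 6433 and 7573 on day 1, at 204, 137.4 and 471 on day 2 and at 653, 3345 and 755 on day 3. Its 3 highest signals were those of mice 1, 2 and 7, and the next, mouse 8, was at 755.3. By median signal Krt4 lay at percentile 98.2 of all genes, Krt14 at 97.5, Krt15 at 96.7 and Krt19 at 72.3. Without the day 2 arrays the percentiles were 98.6, 97.3, 96.7 and 94.6. The Krt14 and Krt4 values rest on probe sets that can bind related transcripts. Without such probe sets Krt14 was at percentile 75.7 and Krt4 at 92.0.

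Krt12, the corneal keratin, was among the 3 genes with the highest median on these arrays. It read 227253 and 146551 on day 1, 64809, 107763 and 104230.0 on day 2 and 98999, 107268 and 36932 on day 3, so no array was without it. This probe set can bind related transcripts, and without such probe sets Krt12 lay at percentile 99.4 and outside the top 25. The arrays are called limbal captures here, after the rule that chose them. Krt5, the partner of Krt14 and Krt12, had signals of 30877 and 38116.5 on the day 1 arrays, 10557, 5047 and 7942 on the day 2 arrays and 16908, 36219 and 6652.6 on the day 3 arrays. Its 3 highest signals were those of mice 2, 7 and 1. Genes of stroma, muscle and epidermis also differed between these arrays, as given further on, and their part in the keratin signals was not tested.

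**Figure D1:**
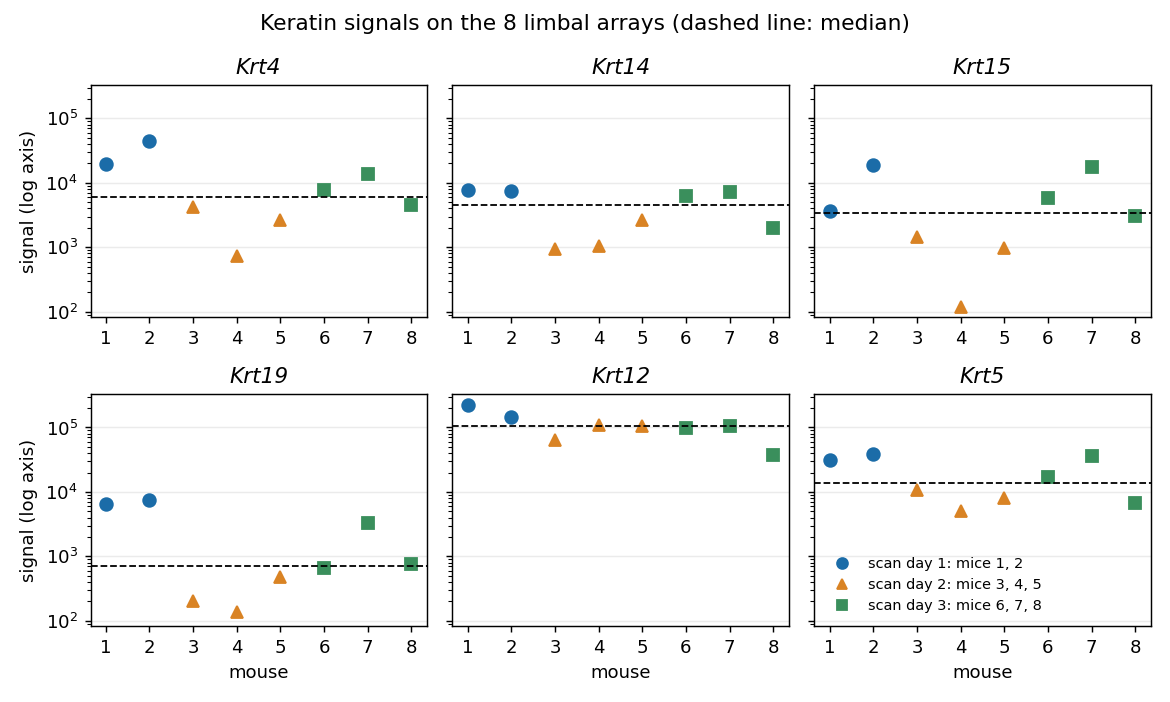
Signal (vertical log axis) of 6 keratin genes on the limbal array of each mouse (horizontal axis), with colour and shape for the scan day and a dashed line at the median. Krt12 stays at 36932 or above on every array, while Krt15 spans 119.6 to 18852 and Krt19 137.4 to 7573.

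The brightest genes combined corneal keratin, ribosomal proteins, respiratory chain and metabolic enzymes. The 25 genes with the highest median signal ran from Pik3cd at 155920.0 to Hmgn1 at 41022, and rank 26 was at 40451. Of the 25, 5 were ribosomal protein genes, namely Rps20, Rps18, Rps28, Rps29 and Rpl37a. Fabp5, a fatty acid-binding protein of stratified epithelia, had a median of 77062.4, and Tkt, a transketolase abundant in corneal epithelium, one of 53476.5. Krt6b, a keratin of activated epithelium, had a median of 66273, and Dsp, the desmosomal plaque protein desmoplakin, one of 46711. Gsto1, a glutathione transferase, and Akr1a1, an aldehyde reductase, had medians of 55089.8 and 52989. Of the same number of top genes on the corneal arrays, 18 of 25 were shared, and 79 of the top 100.

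Fabp5 was at 119767 and 83314 on day 1, at 20533, 2041 and 22628.5 on day 2 and at 131417, 95990.5 and 70811 on day 3. Tkt read 42146 and 96718 on day 1, 14277, 44302.6 and 47044.5 on day 2 and 59908.5, 137035 and 78009.5 on day 3, with its highest signal on mouse 7. Dsp had signals of 77279 and 71892 on the day 1 arrays, 25313, 13936 and 32071 on the day 2 arrays and 61351, 78145 and 20933 on the day 3 arrays. These genes were dimmer on the day 2 arrays by median, as were 20 of the 25. Among the 4549 genes above the 75th percentile of median signal, 21.8% were brighter on day 2.

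The other 5 of the top 25 were brighter on day 2, and these include the first and second in rank. Pik3cd, a catalytic subunit of phosphoinositide 3-kinase, was at 103308 and 207144 on day 1, at 414064, 435823 and 276371 on day 2 and at 104695, 36069 and 17457 on day 3. All day 2 arrays were above all others. Car7, a carbonic anhydrase, read 270815 and 90581.5 on day 1, 70566, 184620.0 and 484808 on day 2 and 181081, 88532 and 43034 on day 3, and there the days overlapped. E2f5, a transcription factor of the cell cycle, had day 2 signals between 85276 and 178147, 65676 and 114123 on day 1, and 25752 or less on day 3, so that days 1 and 2 overlapped. Tpx2, a spindle assembly factor, had day 2 signals between 119253 and 152996, all above the other 5 arrays. Rassf1, the fifth, had a median 1.85 times higher on day 2 than on the other days. For 4 of these genes the next probe set of the same gene was dim, with medians of 783.6 for Pik3cd, 106.9 for Car7, 695.1 for E2f5 and 237.8 for Rassf1. For Tpx2 it was 50023. In Pik3cd, Car7, E2f5 and Rassf1 the bright signal thus belongs to single probe sets. The part of cross-binding in these signals was not tested.

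**Figure D2:**
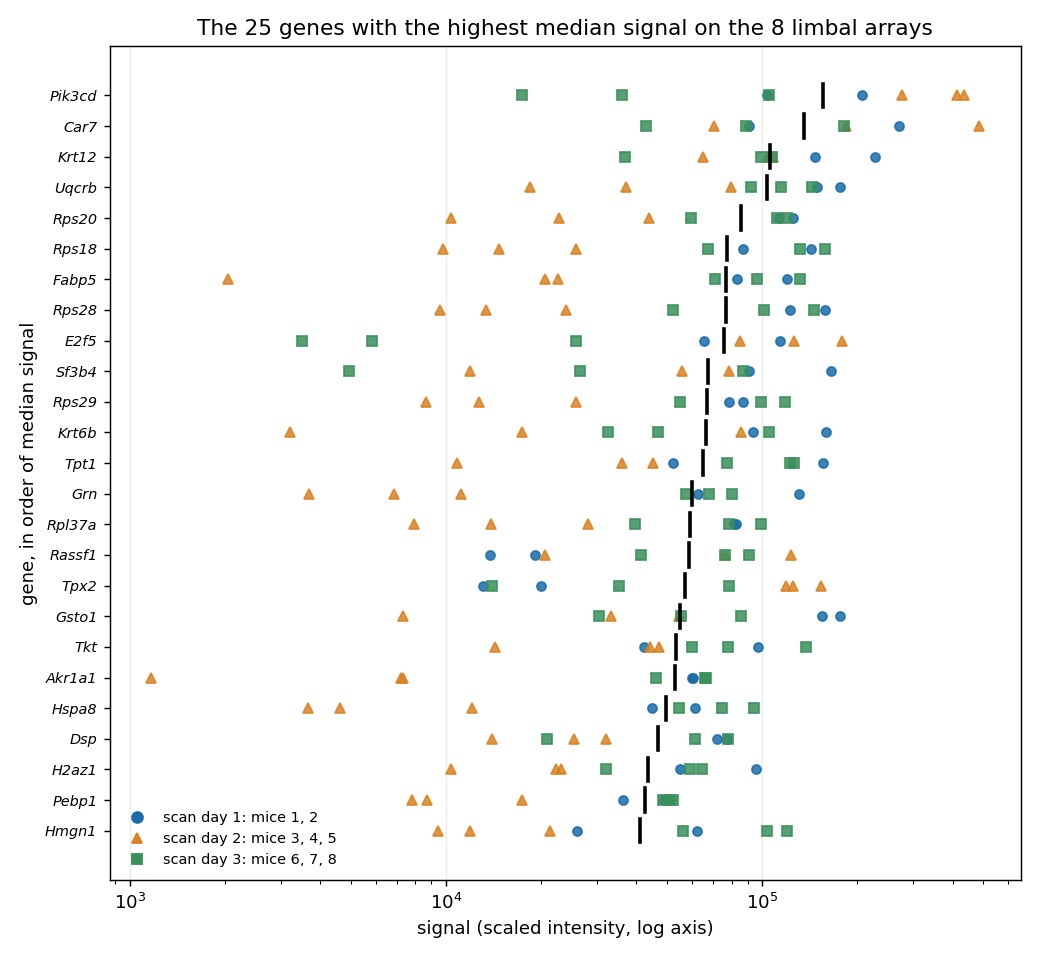
Signal (horizontal log axis) of the 25 genes with the highest median signal (rows, in that order) on each limbal array, with colour and shape for the scan day and a black bar at the median. Most genes have their day 2 points at the low end, Pik3cd and Tpx2 have them at the high end, and E2f5 has its day 3 points at the low end.

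Leaving out the day 2 arrays retained 21 of the 25 genes and 81 of the top 100. The first 5 were then Uqcrb, a subunit of respiratory complex III, the ribosomal protein genes Rps18 and Rps28, the growth-related Tpt1, and Rps20. The entering genes were Rpl35, Myh1, Psapl1 and Tgm2. Without probe sets that can bind related transcripts, 11 of the 25 remained, since the other 14 were read from such probe sets. Of the 100 brightest probe sets of any class, 56 had a single gene symbol, 33 had several and 11 had none here. The brightest of all, with a median of 357006, had none.

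Genes of basal and corneal epithelium were among the bright genes, those of stem cells less uniformly. Of 17 corneal genes, 16 were above the 75th percentile of all genes, with a median percentile of 96.7. Aldh3a1, an aldehyde dehydrogenase abundant in corneal epithelium, had signals of 47149.5 and 25339.7 on the day 1 arrays, 9636, 6651.4 and 11375.6 on the day 2 arrays and 13956, 58888 and 11667.5 on the day 3 arrays. Clu, the chaperone clusterin, was at 32799 and 10117.5 on day 1, at 1883, 1377.6 and 1395 on day 2 and at 19591, 25146 and 13969 on day 3. Of 21 measured basal genes, 12 were above the 75th percentile, with a median percentile of 82.3. Perp, a tetraspan desmosome protein, had a median of 13496 and Cd151, a tetraspanin of hemidesmosomes, one of 12374. Dst and Plec, the linkers of hemidesmosomes to keratin, had medians of 5137 and 6356. Itgb4, the hemidesmosome integrin chain, was read at a median of 68.8 and did not exceed 733 on any array. Of 18 measured junction genes, 12 were above the 75th percentile, and 12 of the 18 had their highest signal on mouse 7. For comparison, 27.6% of all genes above the 75th percentile were highest on mouse 7 and 24.5% on mouse 8. The shares were 11.98% for mouse 6, 10.6% for mouse 1 and 6.81% for mouse 3. They were 6.73% for mouse 4, 6.13% for mouse 2 and 5.67% for mouse 5. Counts of this kind, here and below, cover whole lists, including genes below that percentile. These shares are thus only a rough guide to such counts.

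Several keratins on the list of mucosal and simple epithelial genes were among the brighter genes, and the goblet cell mucin was not. Krt6a, Krt13 and Krt8 had medians of 8045, 2066 and 1623. Krt19, from the same list, was at percentile 72.3 with all 8 arrays, as given above. Krt8, a keratin of simple epithelia, read 5359 and 5121 on day 1, 1383, 145 and 1044.5 on day 2 and 920.6, 1863 and 7683 on day 3, with mice 1, 2 and 8 well above the rest. Muc5ac, the mucin of conjunctival goblet cells, had a median of 87.7 and a highest signal of 561. Of the 20 mucosal genes, 11 were above the 75th percentile.

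Of 21 measured genes proposed as limbal or epithelial stem cell markers, 8 were above the 75th percentile, with a median percentile of 71.9. Trp63, the transcription factor of basal epithelial cells, had signals of 189 and 648.5 on the day 1 arrays, 335.4, 127 and 758 on the day 2 arrays and 1709, 2953 and 1127 on the day 3 arrays. Its highest signals were on the 3 day 3 arrays. Abcg2, the transporter used to mark side population cells, was at 894.6 and 23.9 on day 1, at 73.7, 101.6 and 65.4 on day 2 and at 377, 375.4 and 8725 on day 3, so that mouse 8 alone had a bright signal. Ifitm1, an interferon-induced membrane protein, read 33124 and 43295 on day 1, 8577, 60.6 and 8368 on day 2 and 9861, 36063 and 8227 on day 3. On the array of mouse 4 it lay below that array's median of 307.7. Vim, which the list shares with stromal genes, is given with those.

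The 5' flanks of 3 genes that differ in how evenly they were detected are shown next. The genes were picked by hand, and the sources used here held no window for Krt15 or Krt4. Krt12 was bright on all 8 arrays, while Krt10 and Lor, described further on, had their 3 highest signals on day 3. The windows run from 250 bases before to 50 after the RefSeq start in GRCm38.p6 and are written 5′ to 3′ on the strand of the gene. Capitals mark TATAAA, which was searched on both strands.
Krt12, chr11:99422210-99422509, minus strand: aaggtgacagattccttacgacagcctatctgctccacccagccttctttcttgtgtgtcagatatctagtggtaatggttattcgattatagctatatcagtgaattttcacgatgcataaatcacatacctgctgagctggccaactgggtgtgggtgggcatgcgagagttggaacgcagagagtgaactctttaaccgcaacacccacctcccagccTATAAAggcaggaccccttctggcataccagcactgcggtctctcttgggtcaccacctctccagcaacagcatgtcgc
Krt10, chr11:99389315-99389614, minus strand: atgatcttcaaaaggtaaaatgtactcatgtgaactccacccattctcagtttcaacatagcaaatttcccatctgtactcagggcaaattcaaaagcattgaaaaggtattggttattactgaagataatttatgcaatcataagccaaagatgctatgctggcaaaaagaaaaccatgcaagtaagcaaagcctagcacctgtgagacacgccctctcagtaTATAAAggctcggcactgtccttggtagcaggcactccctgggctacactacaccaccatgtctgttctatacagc
Lor, chr3:92083093-92083392, minus strand: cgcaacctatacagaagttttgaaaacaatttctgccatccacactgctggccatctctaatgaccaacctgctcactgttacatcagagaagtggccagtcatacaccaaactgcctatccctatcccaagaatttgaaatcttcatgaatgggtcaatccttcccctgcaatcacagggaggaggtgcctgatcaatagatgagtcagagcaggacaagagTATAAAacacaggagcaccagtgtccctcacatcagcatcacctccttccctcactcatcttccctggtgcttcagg
The letters TATAAA begin 29 bases before the start in Krt12, 26 in Krt10 and 27 in Lor, on the strand of the gene. They occur in 13.6% of the 32851 promoter windows of the same length. That share counts the letters anywhere in the window and on either strand. All 3 picked genes hold the letters, whether evenly detected or not, and enrichment was not tested.

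Stromal genes were prominent on the arrays of mice 1, 2 and 6. Of 29 measured stromal genes, 24 were above the 75th percentile of all genes, with a median percentile of 89.1 and of 93.4 without day 2. Col1a2, a chain of fibrillar collagen I, had signals of 183836 and 96072.4 on the day 1 arrays, 851, 112 and 248.4 on the day 2 arrays and 35096.6, 6819 and 4074 on the day 3 arrays. The SD of its log2 signal was 3.69, against 0.77 for Krt12 and 1.25 for Krt14. Col3a1, the chain of collagen III, was at 37154.5 and 40738.5 on day 1, at 136.4, 1037.4 and 1436.6 on day 2 and at 29869, 5369.4 and 5670.4 on day 3, in the same order of days. Fmod, the collagen-binding proteoglycan fibromodulin, read 67034 and 25929.9 on day 1, 111, 11.6 and 157 on day 2 and 27319, 7253 and 3291.4 on day 3. Vim, the intermediate filament of mesenchymal cells, had signals of 32498 and 17993.4 on the day 1 arrays, 39.9, 269 and 1323 on the day 2 arrays and 56995, 12136.5 and 5891.6 on the day 3 arrays. The mean log2 level of the list was 12.37, 11.91 and 12.12 on mice 1, 2 and 6, 10.41 on both mice 7 and 8, and between 9.14 and 9.24 on mice 3, 4 and 5. On each of mice 1, 2 and 6, 9 genes of the list had their highest signal.

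Genes that mark corneal keratocytes lay between percentile 70.6 for Kera and 91.4 for Dcn. Dcn, the proteoglycan decorin, had a median of 1570.0 and reached 8395 on mouse 6. Lum, lumican, had a median of 937. Kera, keratocan, had a median of 670.0 and reached 2301 on mouse 1. In a capture, fewer cells of a type and less RNA per cell cannot be told apart, which holds for every cell type below.

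Immune genes were most often highest on mice 6 and 1. Of 30 immune genes, 10 were above the 75th percentile, 9 had their highest signal on mouse 6, and 8 on mouse 1. A further 6 had it on mouse 5, 3 on mouse 3 and 2 on mouse 4, which are the low-signal arrays of day 2. H2-Aa, an MHC class II chain of antigen-presenting cells, was at 8856.6 and 12884.4 on day 1, at 721, 181.4 and 1011 on day 2 and at 57246, 7379 and 3371 on day 3. Csf1r, the receptor of macrophage growth factor, read 63943 and 13259.9 on day 1, 839.6, 484 and 1208.5 on day 2 and 42536, 8101 and 6174 on day 3. Lyz1, a lysozyme, had signals of 6544.4 and 5927 on the day 1 arrays, 437, 322 and 97.2 on the day 2 arrays and 30054.5, 5879.7 and 3929 on the day 3 arrays. In these 3 genes the day 2 arrays were below the others, but other genes of the list ran the other way. Cd14, a monocyte receptor for bacterial lipids, was at 472.4 and 21.7 on day 1, at 1018, 657 and 1237 on day 2 and at 188.5, 149 and 136 on day 3, with its 3 highest signals on day 2. Cd3e, a chain of the T cell receptor complex, had a median 3.58 times higher on day 2 than on the other days. The class II partners had medians of 565 for H2-Ab1, 645.5 for H2-Eb1 and 566 for the invariant chain Cd74. Cd207, the langerin gene of Langerhans cells, had a median of 178 and did not exceed 596. The H2-Aa window is shown because H2-Aa stands for the immune genes in the pair tests below, with the letters of the class II Y box in capitals.
H2-Aa, chr17:34287774-34288073, minus strand: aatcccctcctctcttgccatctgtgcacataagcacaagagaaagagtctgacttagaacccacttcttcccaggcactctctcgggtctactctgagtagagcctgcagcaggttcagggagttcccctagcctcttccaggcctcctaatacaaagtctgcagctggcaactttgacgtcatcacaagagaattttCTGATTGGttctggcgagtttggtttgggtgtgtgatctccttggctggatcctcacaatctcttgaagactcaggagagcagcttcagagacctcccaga
The letters CTGATTGG begin 51 bases before the start and occur in 4.10% of all promoter windows on either strand. TATAAA does not occur in the window.

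Several muscle genes, but not all, split the arrays in a way that scan days did not. Myh1, a myosin heavy chain of fast skeletal muscle, read 127244 and 202.4 on day 1, 739, 486 and 123292 on day 2 and 82243.6, 95.4 and 69497 on day 3. Mice 1, 5, 6 and 8 were at 69497 or above, and mice 2, 3, 4 and 7 at 739.3 or below. This Myh1 probe set can bind related transcripts. Tnnc2, troponin C of fast muscle, had signals of 2465 and 39.8 on the day 1 arrays, 111.4, 75.3 and 4446 on the day 2 arrays and 19315, 10.3 and 62207.4 on the day 3 arrays. Tnnt3, fast troponin T, was at 2954.5 and 104 on day 1, at 127, 47.9 and 1161.5 on day 2 and at 4340.2, 24.1 and 16288 on day 3. Mylpf, a fast myosin light chain, read 3109.7 and 23.0 on day 1, 957, 573.6 and 1237 on day 2 and 4145, 169.6 and 18060.4 on day 3. Mouse 8 had the highest signal in the last 3 genes and in 8 of 17 muscle genes, while 3 each were highest on mice 1 and 3, and mice 2 and 7 were among the lowest. Other muscle genes did not follow the split of Myh1. Acta1 was at 136.5 on mouse 5 and at 762.6 on mouse 3. Actn3 was at 146.6 on mouse 5 and at 745.2 on mouse 4, and Ckm was highest on mouse 3, at 2267. For the 14 muscle genes above the 50th percentile of mean log2 signal, the median pairwise correlation was 0.63 after subtraction of scan-day means. It was 0.0065 for pairs of all genes above that percentile.

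Several genes of the epidermis were high on day 3. Krt10, the keratin of suprabasal epidermis, had signals of 359 and 8550.1 on the day 1 arrays, 155, 146 and 98.4 on the day 2 arrays and 44018, 119291 and 17824 on the day 3 arrays. Lor, the cornified envelope protein loricrin, was at 433 and 4068 on day 1, at 1049, 524 and 2249 on day 2 and at 64687.4, 74416.4 and 18651.6 on day 3. Mouse 7 was highest in both and in 14 of the 24 cornified envelope genes, while 4 were highest on mouse 3 and 3 on mouse 5. Lce1a1, a late cornified envelope gene, read 410.1 and 1087 on day 1, 1345, 438 and 171.6 on day 2 and 10383, 24813 and 7827 on day 3. Dmkn, dermokine, had signals of 286.4 and 1823 on the day 1 arrays, 176.6, 479 and 60.9 on the day 2 arrays and 9159.4, 25494 and 2634 on the day 3 arrays. Krt1, the partner of Krt10, had 9118, 27295.4 and 2279 on mice 6, 7 and 8, against at most 887 on the other 5. All of these genes had their 3 highest signals on the 3 day 3 arrays.

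Of the 10 pigment cell genes, 5 had their highest signal on mouse 8 and 1 on mouse 7, and the rest had it on day 2, with 2 on mouse 5 and 1 each on mice 3 and 4. Dct, Tyrp1 and Rpe65 were among those highest on day 3, and Tyrp1 and Rpe65 were chosen after their values were seen. Dct, a melanin synthesis enzyme, was at 140.3 and 29.6 on day 1, at 40.4, 66.4 and 967 on day 2 and at 1025, 7882.5 and 6745.5 on day 3. Tyrp1, another, read 41.5 and 445 on day 1, 87.6, 125 and 40.3 on day 2 and 575, 4154.5 and 5967.5 on day 3. Rpe65, a retinoid enzyme of pigment epithelium, was at 4036 on mouse 8 and at 439.5 or below on the others. Ttr, transthyretin, which the choroid plexus and ocular pigment epithelia secrete, had signals of 31.6 and 298 on the day 1 arrays, 298, 1041 and 190.4 on the day 2 arrays and 53274, 19263 and 62676.4 on the day 3 arrays. The 3 day 3 arrays were at 19263 or above and the other 5 at 1041.3 or below. Of 10 pigment genes, 1 was above the 75th percentile, and of 14 vessel and nerve genes 0 were. Pecam1, the endothelial adhesion gene, had a median of 85.5.

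**Figure D3:**
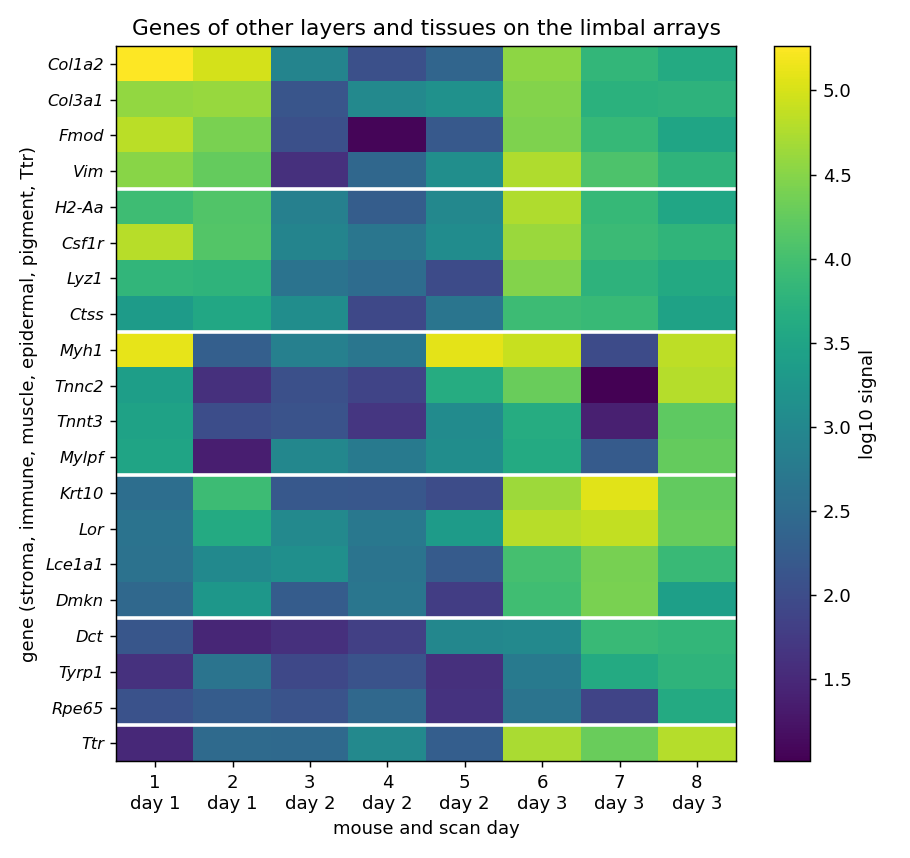
Signal on a log10 colour scale of genes that mark stroma, immune cells, muscle, epidermis and pigment cells, and Ttr (rows), on the limbal array of each mouse (columns). Col1a2, Col3a1, Fmod and Vim are highest on mice 1, 2 and 6, Myh1 on mice 1, 5, 6 and 8, and the epidermal genes and Ttr on mice 6, 7 and 8.

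Values of 18 genes of testis, liver, pancreas, pituitary, kidney and nerve tissue gave a level for comparison. Their 144 values had a median of 136.3 and a 95th percentile of 1427, with a highest value of 5189.9 for Cyp2e1 on mouse 2. Of all 18193 genes, 196 (1.08%) exceeded 1427 on all 8 arrays, and 1094 (6.01%) on the 5 arrays outside day 2. For the corneal list these numbers were 6 and 8 of 17, for the stromal list 1 and 11 of 29, and for the immune list 0 and 5 of 30. For the 4 marker keratins they were 0 and 3, and 0 of the 4 exceeded 1427 on mouse 4. The cornified and pigment lists had 0 genes above 1427 on all 5. Probe sets differ in brightness, so this level is a rough guide only.

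Ribosomal protein and energy genes were among the brightest. Of 28 measured ribosomal genes 26 were above the 75th percentile, with a median percentile of 99.1, and 19 had their highest signal on mouse 7. Of 24 energy genes 23 were above the 75th percentile, and of 15 antioxidant genes 14. Pgk1, a glycolytic enzyme, was at 35666 and 44528 on day 1, at 4626, 3159 and 15125 on day 2 and at 80141, 49709.6 and 57575 on day 3. Cox6a1, a subunit of cytochrome oxidase, read 33799.5 and 65311 on day 1, 3170.1, 1481.4 and 7859 on day 2 and 67484, 50429.8 and 44764.6 on day 3. In both, day 2 was below every other array. Sod1, superoxide dismutase, had signals of 9033.6 and 23974 on the day 1 arrays, 3204, 1299 and 5306.6 on the day 2 arrays and 30150.2, 31163 and 72580.3 on the day 3 arrays, with mouse 8 highest.

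**Figure D4:**
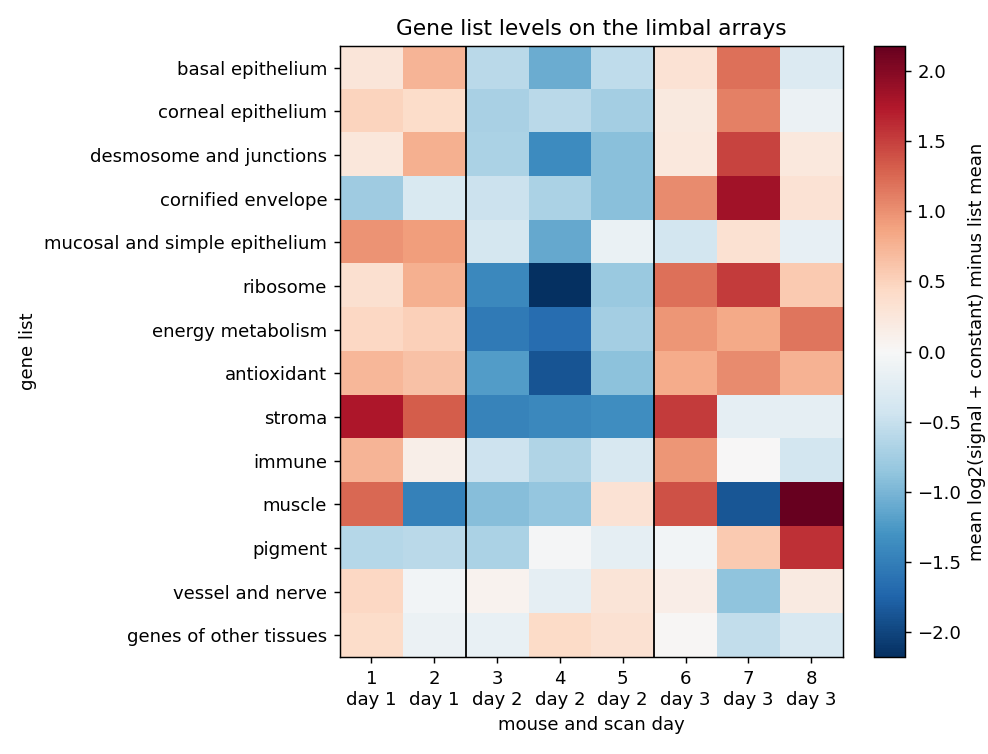
Mean log2(signal + constant) of each gene list (rows) on the limbal array of each mouse (columns), minus the list's mean over the 8 arrays, with lines between scan days. Stroma is high on mice 1, 2 and 6, muscle on mice 1, 6 and 8, cornified envelope on mice 6 and 7, and the day 2 arrays are low in most lists.

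The spread between arrays was wide for most bright genes. Over the 4549 genes above the 75th percentile, the median SD of log2(signal + 89.3) was 1.18. After subtraction of scan-day means it was 0.84, and without day 2 it was 0.71. The 12 genes with the largest SD were Myh1 at 4.29, Krt10 at 3.82, Col1a2 at 3.69, Fmod at 3.66, Tnnc2 at 3.62, Car3 at 3.48, Lgals1 at 3.46, Scd1 and Sbsn at 3.44, Psapl1 at 3.35, Lce1c at 3.19 and Klf9 at 3.18. Among them Myh1 and Tnnc2 are muscle genes, Col1a2 and Fmod stromal, and Krt10, Sbsn and Lce1c epidermal. Scd1, a fatty acid desaturase, was at 2116.6 and 9340.1 on day 1, at 266, 109 and 157.5 on day 2 and at 26805.6, 38760.6 and 60329 on day 3, with the day 3 arrays above the rest. Lgals1, galectin 1, read 101630.0 and 20322 on day 1, 95.2, 1424 and 110.3 on day 2 and 44797, 6396 and 18549 on day 3. With scan-day means subtracted, 2 of the 12 remained, Myh1 and Tnnc2, and the new ones included the muscle genes Mb, Myom2, Srl, Trdn, Mylpf and Ttn. These were chosen after their values were seen.

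The 12 genes with the smallest SD had moderate signals. Gspt1, a translation termination factor, had signals of 1221.6 and 1258.6 on the day 1 arrays, 1442, 1362 and 1540.1 on the day 2 arrays and 1313.6, 1134 and 1201 on the day 3 arrays, with an SD of 0.14. Shroom4, Mrpl17 and Sik2 followed at 0.19, 0.23 and 0.24. The 12 medians lay between 768.9 and 1964, so none of these genes was among the brightest.

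Of 15 pairs among 6 genes that stand for corneal, basal, limbal, mucosal, stromal and immune signals, Krt15 and Krt4 varied together most closely. With scan-day means subtracted their Pearson r was 0.98 and Spearman rho 0.90 over 8 arrays. An exact two-sided permutation test within scan days gave p = 0.0139 for both, which is the smallest that its 72 permutations allow. Adjusted over the 15 pairs it was 0.208, so no pair passed 0.05 and 1 pair passed it unadjusted. No pair could pass alone, since the smallest unadjusted p times 15 exceeds the threshold. The r was 0.97 without the 2 arrays farthest from the median of Krt15, and 0.97 to 0.99 when single arrays were left out. Krt4 was read from a probe set that can bind related transcripts, and the pair was not recomputed without such probe sets. Among 9096 genes with a median signal above that of all genes, Krt4 had rank 4 in likeness to Krt15, and Krt15 rank 2 in likeness to Krt4. Likeness of this kind was common, as 97 genes had an r above 0.9 with Krt15 and 117 with Krt4.

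Krt12 and Krt14 had an r of 0.82 and a rho of 0.71 (exact permutation p = 0.0556 and 0.111, adjusted 0.417 and 0.556). Without the arrays of mice 8 and 1 the r was 0.55, without mouse 8 alone 0.46, and after quantile normalization 0.54. Col1a2 and H2-Aa, the stromal and immune genes, had an r of 0.83 and a rho of 0.88 (exact permutation p = 0.0972 and 0.0694, adjusted 0.486 and 0.521). The r without mice 1 and 4 was 0.86, but it was 0.51 without mouse 6, where H2-Aa was highest, and 0.48 after quantile normalization. Krt12 with Krt15 and Krt4 had r values of 0.042 and 0.016. Neither scan day 2 nor 3 held enough arrays for a correlation of its own, with 3 each. Without the subtraction of scan-day means, 10 of the 15 pairs had an adjusted exact permutation p under 0.05. In Krt15, Krt4, Col1a2 and H2-Aa every day 2 array was below every other array.

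**Figure D5:**
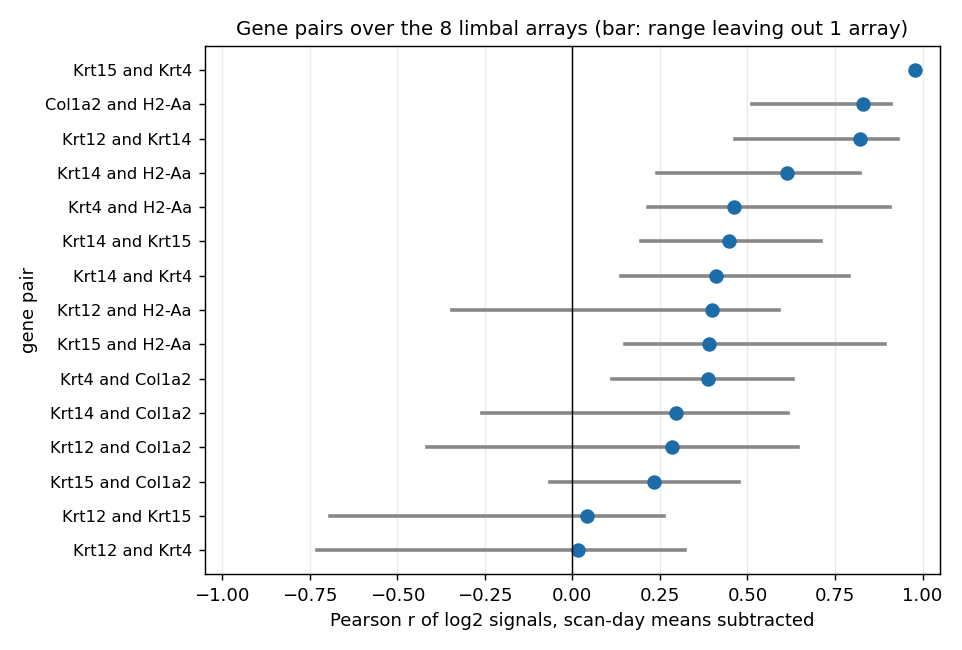
Pearson r (horizontal axis) of the log2 signals of 15 gene pairs (rows) over the 8 limbal arrays after subtraction of scan-day means, with a bar for the range when single arrays are left out. Krt15 and Krt4 lie at 0.98 with a range of 0.97 to 0.99, and the pairs of Krt12 with Krt15 or Krt4 range across 0.

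The means of the gene lists were correlated as a description, with no test. Stroma and immune means correlated at r = 0.92 over the 8 arrays with scan-day means subtracted, ranging from 0.76 to 0.97 when single arrays were left out. Basal epithelium correlated with junctions at 0.91 and with the cornified envelope at 0.90, and muscle with the cornified envelope at -0.92. These were the 3 highest values and the lowest among 55 pairs of 11 lists. The means share array quality and the scaling to a common trimmed mean, so they are not independent of each other. The stromal list correlated at 0.68 with the genes of other tissues.

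The 6 genes whose signals were most like each of these genes are named next. For Krt15 they were Scel, a cornified envelope protein, Fam135a, Eif4g2, Krt4, Khdrbs1 and Taok3, with r between 0.97 and 0.99 over 8 arrays. For Krt4 they were Ntn4, Krt15, Ctsh, Hnrnpd, Rgs10 and Bcl2, with r between 0.97 and 0.98. For Krt12 they were Gas2l1, L1cam, Tspan5, Cd86, Pde7a and Nuak1. For Krt14 they were Pyy, Ercc2, Cachd1, Hal, Sdr16c6 and Wtip. For Col1a2 they were Mmp23, Gps2, Rmi1, Sectm1b, Cep112 and Cnot2, and for H2-Aa Ift172, Trat1, Rbm27, Slc2a5, Mbd3l1 and Napsa. Over the 6 genes compared these r values lay between 0.96 and 0.99. Between 39 and 117 genes of 9096 had an r above 0.9, depending on the gene compared, and scan-day subtraction leaves 5 degrees of freedom among the 8 arrays.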

How the data were processed

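The authors deposited 1 table of linear intensity values for 16 arrays, each array from 300 captured cells, each scaled so that its mean, with the outer 2% of values trimmed at both ends, is 500. The algorithm behind these signals is not given in the sources used here, and per the file headers the array information files give scan day and station. There were 45101 probe sets. Of these, 64 were controls, 34945 had a single gene symbol, 932 had several and 9160 had none here. A gene took its brightest single-symbol probe set by median over the 8 limbal arrays. Logarithms were log2(signal + 89.3), with the 25th percentile of the values as constant, so a difference understates that of dim genes. Promoter windows are from RefSeq.

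Genes were ranked by median, and spread was the SD of log2 values. Among 6 genes, 15 correlations were tested by exact two-sided permutation within scan days, with Benjamini-Hochberg adjustment. Limbal and corneal arrays were not tested against each other. The arrays come from 8 separate mice, and their number limits the precision. The genes, lists and tests were chosen with earlier results of these data known. Named are the top 25 genes, the marker keratins and the 6 genes paired in the tests, up to 4 of the brightest genes per list with 13 fixed genes, the 12 widest and 12 tightest genes, and the 6 genes most like each of the paired genes. Other genes (among them Tnnc2 beyond its spread, Tnnt3, Mylpf, Lce1a1, Dmkn, Krt1, Tyrp1, Rpe65, Cd14, Cd3e, Aurkb, Itgb4, Cd207, Muc5ac and Pecam1) were named after their values were seen. Acta1, Actn3 and Ckm were named in the same way.

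Alternatives were another constant (16), quantile normalization, other summaries of a gene, scan-day centring and leaving out arrays. On simulated data with 18193 genes, 25 of 25 genes placed highest, 12 of 12 widest genes and 40 of 49 linked genes were recovered. The planted highest and widest genes were set to stand out. The other genes had less noise than in the data, and no scan-day differences were added. These recoveries thus check the calculation and not its accuracy on these arrays. In a separate step on simulated pairs of 2 unlinked genes, 5.25% of 400 pairs had an exact permutation p of 0.05 or less. Analyses used Python 3.11.15, numpy 2.4.6, pandas 2.3.3, scipy 1.17.1 and matplotlib 3.10.9.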

Additional observations from a re-analysis of the deposited data

Results flagged for a closer look

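On the log2 scale, 124 named genes and 20 list means were checked, 144 in all. In 3 genes, 1 array lay far from the other 7. By chance about 1 in 20 such groups would be flagged, and 3 of 144 is fewer than that rate gives. The 3 genes are thus listed as description only. Fabp5 was at 11.06 on mouse 4, while the other arrays lay between 14.33 and 17.00. Ifitm1 was at 7.23 on mouse 4, while the others lay between 13.02 and 15.40. Rpe65 was at 12.01 on mouse 8, while the others lay between 7.06 and 9.05.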

How the results depend on the processing

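The set of the 25 brightest genes kept 20 to 22 members under the mean of the signal, quantile normalization, within-array percentiles, the mean of a gene's probe sets and the removal of scan day 2 (21), and 21 to 23 when single arrays were left out. It kept 11 without probe sets that can bind related transcripts. The set of the 12 widest genes kept 10 under a constant of 16 and under quantile normalization, 2 with scan-day means subtracted, 3 without scan day 2, and 7 to 10 when single arrays were left out, the lowest without mouse 8. No pair of the 6 genes tested passed the adjusted threshold as reported or under the other settings, where few permutations are possible, except for 10 pairs with no centring. The sign of r was kept in 165 of 180 recomputed values. Of 220 recomputed list medians, 219 moved by less than 1 SD of the list median between arrays. The exception was the blood list, from 3 genes, at percentile 33.8 with the mean of all probe sets, against 48.0. That SD was wide, and moves within it could be large. The muscle list, at percentile 68.0, was at 91.9 without scan day 2 and at 42.0 without mouse 8. The cornified envelope list, at 70.6, was at 55.3 without mouse 7. No paired analysis was made, since no difference between limbal and corneal arrays was tested. The corneal arrays of the same mice enter only as counts of shared top genes and in the constant added before logarithms. The 8 arrays, of which 3 gave low signals, limit what can be said of single genes, and the cause of these differences was not tested.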

Other observations

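Proliferation and stress genes were not described above. Of 29 measured cell cycle genes, 10 were above the 75th percentile of all genes, with a median percentile of 63.1. Mki67, the proliferation antigen, had a median of 1469, with 4601 on mouse 1, 4092 on mouse 6 and 3823 on mouse 7, against 675.2 or below on the 3 day 2 arrays. Aurkb, a mitotic kinase, ran the other way in its brightest probe set, with 899.8, 1807.4 and 1602.4 on the day 2 arrays and 289.9 or below on the others. That probe set can bind related transcripts. The next Aurkb probe set had a median of 130.3. With scan-day means subtracted, the r between these 2 probe sets was -0.64. Of the list's genes, 9 had their highest signal on mouse 7, 6 on mouse 4 and 5 on mouse 1, with 2 each on mice 3 and 5. Ccnd2, a cyclin of the early cycle, had a median of 2658 and Ccnd1 one of 2240.4. Of 19 measured early response and heat shock genes, 12 were above the 75th percentile. Hspa1b, an inducible chaperone, had a median of 12701 and reached 50702 on mouse 7, and Fos, an early response factor, had a median of 1042.8.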
